A study of Mus musculus with 158 samples.

Results

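Wbscr17, Tmtc2 and Zdhhc20 are 3 genes for enzymes that attach sugars or fatty acids to proteins, and they were among 285 genes knocked down in a pooled screen of mouse pancreatic cancer cells. All hairpins labelled with these target names were taken, which gave 11 of 1000 targeting hairpins in 4 of 19 pools. Wbscr17 had 4 hairpins in pool 8, Tmtc2 had 2 in pool 2 and 2 in pool 3, and Zdhhc20 had 3 in pool 19. The files pair them with the RefSeq transcripts NM_145218, NM_177368 and NM_029492. NM_145218 carries the current symbol Galnt17.

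The cells were PDA530 Met, a line from a liver metastasis of a pancreatic adenocarcinoma, so every value below comes from 1 cell line. Each pool was delivered by virus at a multiplicity meant to put a single short hairpin RNA (shRNA, which lowers the messenger RNA it matches) in most infected cells, and puromycin removed uninfected cells. The 3 arms were pellets of the selected cells at day 0, the same cells after 28 days in culture, and lung tumours 28 days after injection into the tail vein, where all tumours of a mouse were combined into a single DNA sample. All arms carried the hairpins and the puromycin selection; no arm without virus was analysed here, and the sources used here do not give the strain, sex or age of the mice. Hairpin copies were amplified from genomic DNA by PCR without molecular identifiers, so the reads of a library describe the makeup of the cell population and not any messenger RNA. How far each hairpin lowered its target was not measured here.

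Protein O-glycosylation starts when an enzyme puts a first sugar on a serine or threonine. Enzymes of the GALNT family, which includes the Wbscr17 product, add N-acetylgalactosamine in the Golgi. They so begin the mucin-type chains found on mucins and many cell surface proteins. TMTC2, a protein of the endoplasmic reticulum membrane, belongs to a family needed for O-mannose on cadherins and protocadherins, which are adhesion proteins. ZDHHC20 is a palmitoyltransferase at the cell surface: it joins the fatty acid palmitate to cysteines, which ties proteins to membranes, and the growth factor receptor EGFR is among its known substrates.

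A hairpin's level is given as its share of the reads of its pool's own targeting hairpins in that library. A share is relative: a fall of a single hairpin and a rise of the others cannot be told apart from it. Changes between arms are differences of log2(CPM + 1), where CPM stands for counts of a hairpin relative to a fixed total of the pool's targeting reads after TMM scaling (which assumes that most hairpins do not move), and they were tested with limma, with Benjamini-Hochberg adjustment over all hairpins of all pools and a threshold of 0.05. The libraries used for these 11 hairpins held 6143729 to 19655148 reads at day 0, 6028966 to 26068466 in culture and 1285372 to 13887946 in lungs. The shallowest was lung library 2B. Most culture libraries held 2 pools at once, so the pool's own targeting hairpins took 27.8% to 41.0% of the reads there, in the cultures of pools 2, 8 and 19 other than 19D, against 68.8% to 96.4% elsewhere. In pool 3 the day 0 library A and the lung libraries had no values, which leaves 2 day 0 and 3 culture libraries for the Tmtc2 hairpins of that pool. The protocol in the labels speaks of 3 mice per pool and triplicate cultures, and pool 19 has 4 culture libraries; the day 0 libraries of a pool are not said to be separate infections, so p-values against day 0 may measure technical spread on that side.

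**Figure D1:**
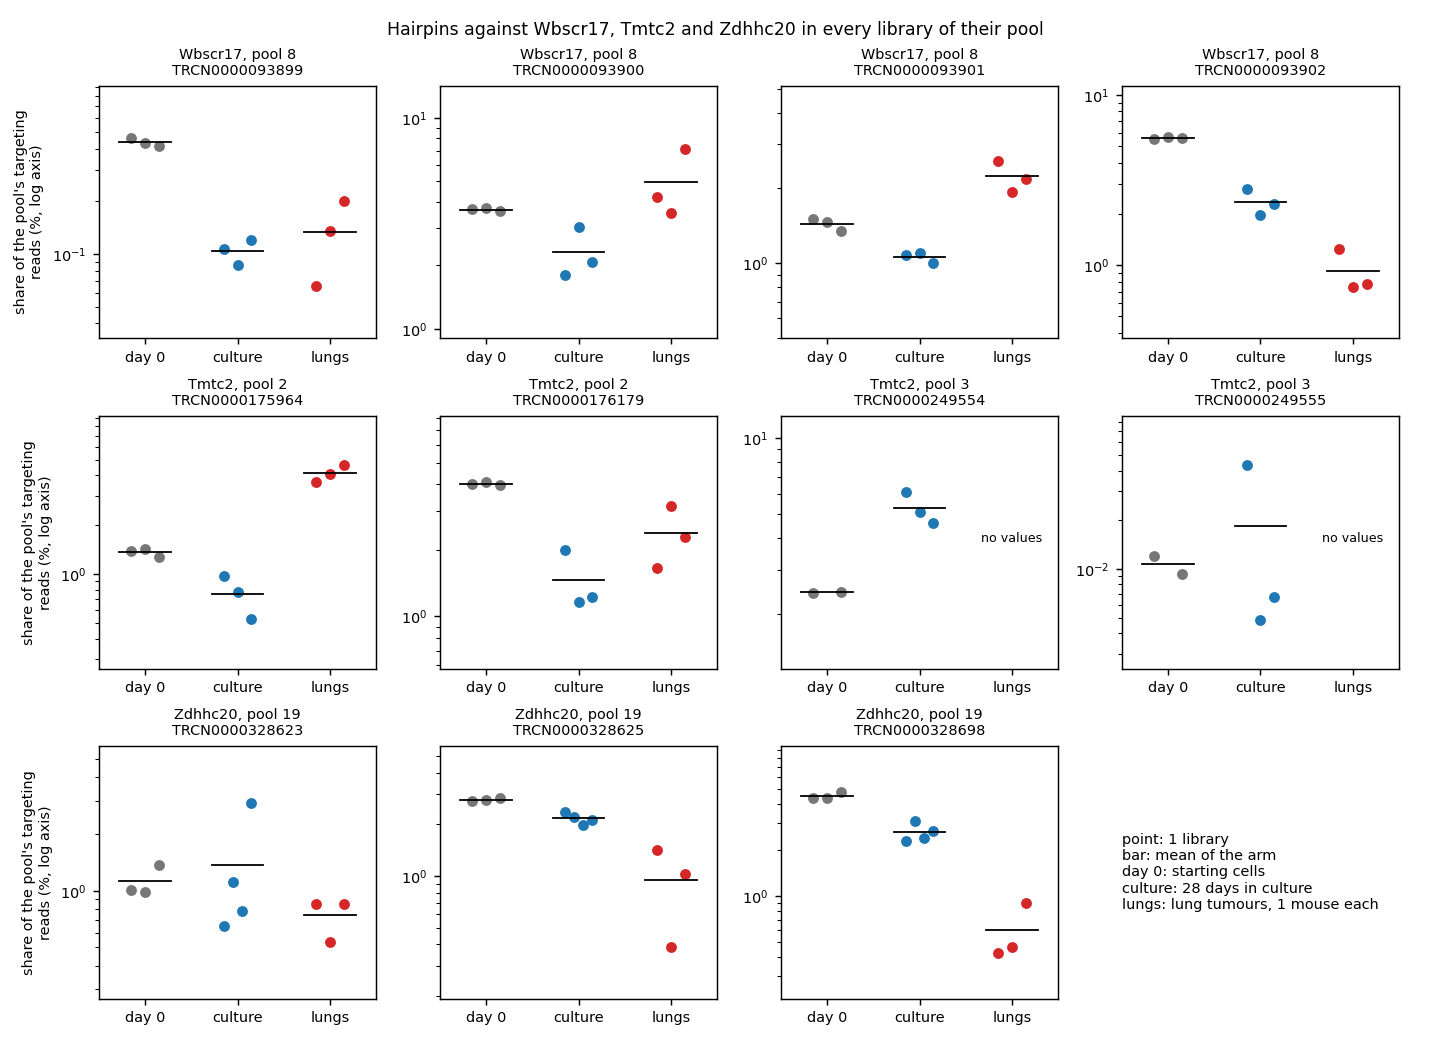
Share of the pool's targeting reads (%, log axis) for each of the 11 hairpins in every library, by arm; points are libraries and bars are arm means. In lungs TRCN0000175964 lies between 3.66% and 4.63%, above all of its day 0 values, while TRCN0000093902 and TRCN0000328698 lie below theirs.

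Control hairpins, named in the files as non-targeting or directed against GFP, give a background for these measurements. On the same scale and in the same lung libraries, 1 non-targeting hairpin (Non-targeting-shRNA-1) differed from day 0 by -0.01, 0.63 and 1.20 in pools 2, 8 and 19, and the hairpin against GFP by -0.75, -0.28 and 0.03. Non-targeting-shRNA-2 stood at -3.44, -4.37 and -3.60 in those pools, below the value of every member hairpin in lungs. In the cultures of pool 3 the same 3 control hairpins stood at 1.77, -0.43 and -1.33. These control values were not tested. Non-targeting-shRNA-2 was also the most variable in lungs, with SDs of 0.996, 0.814 and 1.96 in pools 2, 8 and 19, and it had only 44 reads in its lowest pool 2 library.

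Against day 0, the lungs held more of 2 and less of 3 of the 9 member hairpins tested, and 4 did not pass the test. Tmtc2 gave the highest change and Zdhhc20 and Wbscr17 the lowest, and the called hairpins of Wbscr17 went both ways. The 5 of 9 called compare with 33.8% of all 891 hairpins tested (14.7% higher and 19.1% lower). The median of the 9 log2 changes was -0.43, and that of all hairpins was -0.13. Day 0 and lung shares did not overlap for 8 of the 9, and for 59.9% of all hairpins tested.

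In culture against day 0, 1 of 11 member hairpins rose and 5 fell, where 60.6% of all 945 hairpins tested were called (28.8% higher and 31.9% lower). So the share of members called was close to that of the whole library. All 4 Wbscr17 hairpins (3 with the replicate block, where TRCN0000093901 was not called, and 2 without culture replicate A or C or any 1 of day 0 A, B and C, where TRCN0000093900 was not called either) and 1 Tmtc2 hairpin were among those that fell, the other called hairpin was the Tmtc2 hairpin that rose, and no Zdhhc20 hairpin was called. The median log2 change was -0.25 for the members and -0.10 for all hairpins. The shares of 9 of the 11 did not overlap between the arms, and those of 69.4% of all hairpins did not.

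Lungs against culture compares the 2 populations that had the same 28 days. Here 3 of 9 member hairpins were higher in lungs and 3 lower, against 24.9% of 889 hairpins called (11.6% higher and 13.3% lower), with a member median of 0.31 and a median of -0.11 over all hairpins. The higher ones were 1 of Tmtc2 and 2 of Wbscr17, and the lower ones 1 of Wbscr17 and 2 of Zdhhc20. Shares did not overlap for 6 of the 9, and for 41.1% of all hairpins. The comparisons share libraries, so they are set side by side for each hairpin and not counted as separate evidence. Without any single one of day 0 replicates A, B or C, the count of members called in lungs against day 0 went from 5 to 3, and the calls lost were TRCN0000093899 and TRCN0000093901 of Wbscr17. Over all hairpins the same omissions took the calls from 301 to 148, 154 and 160.

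**Figure D2:**
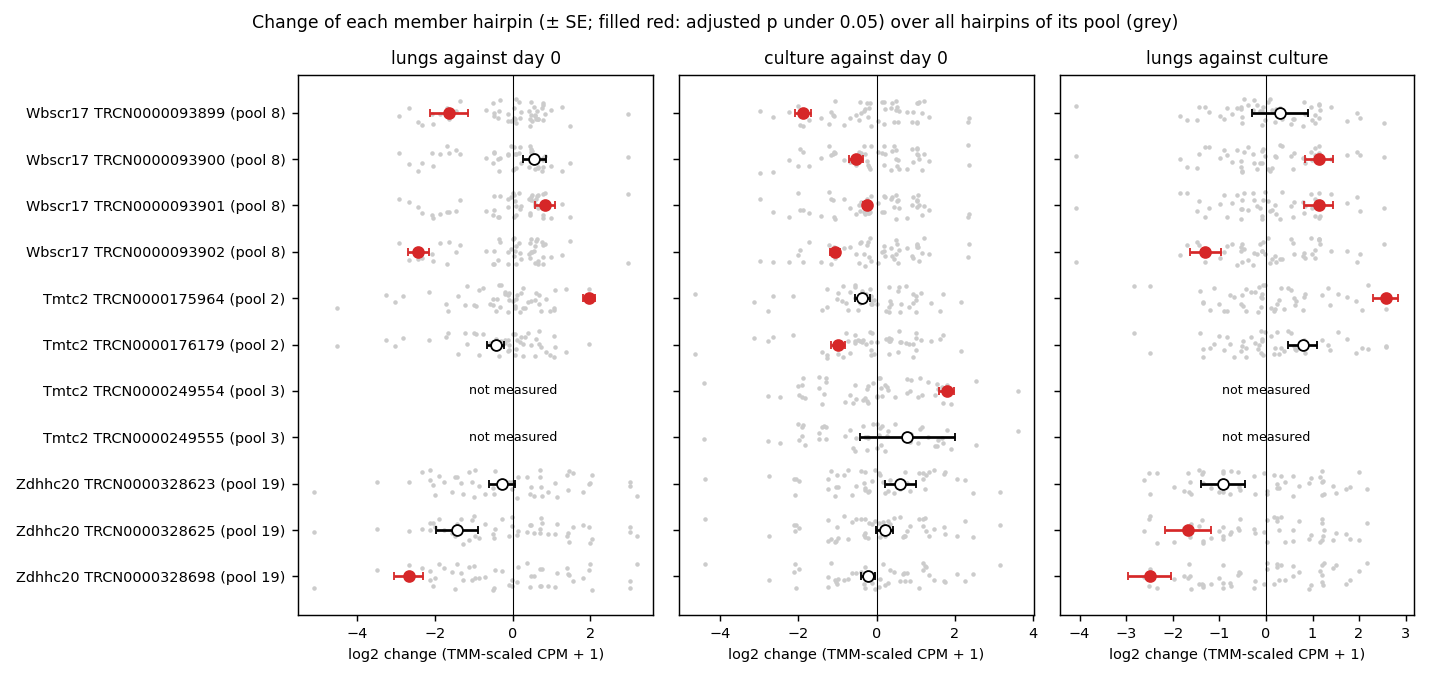
log2 change of each member hairpin with its standard error (large points; filled red where the limma adjusted p was under 0.05), over the changes of all hairpins of the same pool (grey), for each comparison. TRCN0000175964 has the highest change of its pool in lungs against day 0, and TRCN0000093902 and TRCN0000328698 the third lowest of theirs.

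Wbscr17, whose family begins mucin-type O-glycans, was represented by 4 hairpins that took up between 0.412% and 5.66% of pool 8 at day 0. TRCN0000093902 was the most abundant, with shares of 5.48%, 5.66% and 5.56% in day 0 libraries A, B and C, 2.79%, 1.96% and 2.29% in culture, and 1.25%, 0.743% and 0.779% in lungs. The 3 arms did not overlap, with day 0 highest and lungs lowest. It was the third most abundant hairpin of the pool in every day 0 library and ranked 28 to 34 in lungs. It fell 5.42-fold in lungs (log2 change -2.44, SE 0.273, limma adjusted p = 0.000554), the third lowest of 52 changes in the pool, and 2.09-fold in culture (-1.07, SE 0.127, adjusted p = 0.000136). Lungs were also lower than culture, by 2.47-fold (-1.30, SE 0.333, adjusted p = 0.0101). That last call was lost without lung replicate B and without culture replicate A, where the log2 changes were -1.03 and -1.17, and with scaling on the controls (-0.63).

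TRCN0000093901 went the other way in lungs. Its shares were 1.51%, 1.46% and 1.34% at day 0, 1.08%, 1.10% and 0.997% in culture, and 2.58%, 1.93% and 2.18% in lungs. No arm overlapped another, with lungs highest and culture lowest. The rise in lungs over day 0 was 1.77-fold (0.82, SE 0.257, limma adjusted p = 0.0385) and over culture 2.20-fold (1.14, SE 0.309, adjusted p = 0.0136). The first call was lost in 5 of 24 alternatives and the second in 3 of 25, the omissions of culture A, B or C. The fall in culture was small, 1.19-fold (-0.25, SE 0.0936, adjusted p = 0.0487), and with the replicate letter as a block the adjusted p was 0.139; edgeR and DESeq2 gave 0.0557 and 0.140, and 12 of 24 alternatives lost the call. In pool 8 the day 0 and culture libraries of a letter deviated together for all 3 letters, so the blocked value bears on this call.

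TRCN0000093900 resembled TRCN0000093901, with lung values above the cultures. Shares were 3.68%, 3.73% and 3.62% at day 0, 1.80%, 3.04% and 2.08% in culture, and 4.22%, 3.52% and 7.10% in lungs. Lung library B lay below all of the day 0 values and lung library C stood highest, so the arms overlapped. The lung value against day 0 was 0.56 on the log2 scale (SE 0.294, limma adjusted p = 0.175) and was not called. Lungs were 2.21-fold above culture (1.14, SE 0.307, adjusted p = 0.0174), a call lost without lung replicate A, without culture replicate A or C, and with the replicate block. The fall in culture (-0.51, SE 0.177, adjusted p = 0.0344) had an adjusted p of 0.00100 with the replicate block, 0.0593 by edgeR and 0.126 by DESeq2. It was lost in 8 of 24 alternatives, among them leaving out culture replicate A (-0.36) or C (-0.43).

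The fourth hairpin, TRCN0000093899, was the rarest, with 0.458%, 0.433% and 0.412% at day 0. Culture held 0.106%, 0.0865% and 0.120%, and lungs held 0.0658%, 0.135% and 0.201%. All culture and lung values lay below day 0, and the lungs spanned the cultures. It fell 3.67-fold in culture (-1.88, SE 0.202, limma adjusted p = 6.75e-05). In lungs it fell 3.12-fold against day 0 (-1.64, SE 0.498, adjusted p = 0.0347; edgeR gave a log2 change of -1.50 and did not call it). That call was lost in 7 of 24 alternatives, among them control scaling (adjusted p = 0.0678) and leaving out lung replicate B (0.0627). Lungs against culture gave 0.31 (SE 0.598, adjusted p = 0.726), and -0.088 without lung replicate C.

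The 4 hairpins of Wbscr17 therefore formed no single pattern: in lungs against day 0, 1 rose, 2 fell and 1 was not called. Summed, they made up 11.1%, 11.3% and 10.9% of pool 8 at day 0, 5.78%, 6.19% and 5.49% in culture, and 8.12%, 6.33% and 10.3% in lungs. The sum was lower than day 0 in all libraries of both later arms, and it followed the abundant hairpins. Such sums are shares without TMM scaling. On that scale the median log2 change of all hairpins against day 0 was -0.73 in lungs and -0.64 in culture. A ratio of 2 hairpins inside a library needs no scaling. TRCN0000093901 over TRCN0000093902, a pair chosen after its values were seen, had a geometric mean of 0.258 at day 0, 0.455 in culture and 2.47 in lungs, a shift of 9.57-fold from day 0 to lungs, with lung ratios of 2.07 to 2.80. TRCN0000093900 over TRCN0000093901 moved little, from 2.56 at day 0 to 2.13 in both culture and lungs, and the lung ratios of 1.64 to 3.26 spanned day 0.

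**Figure D3:**
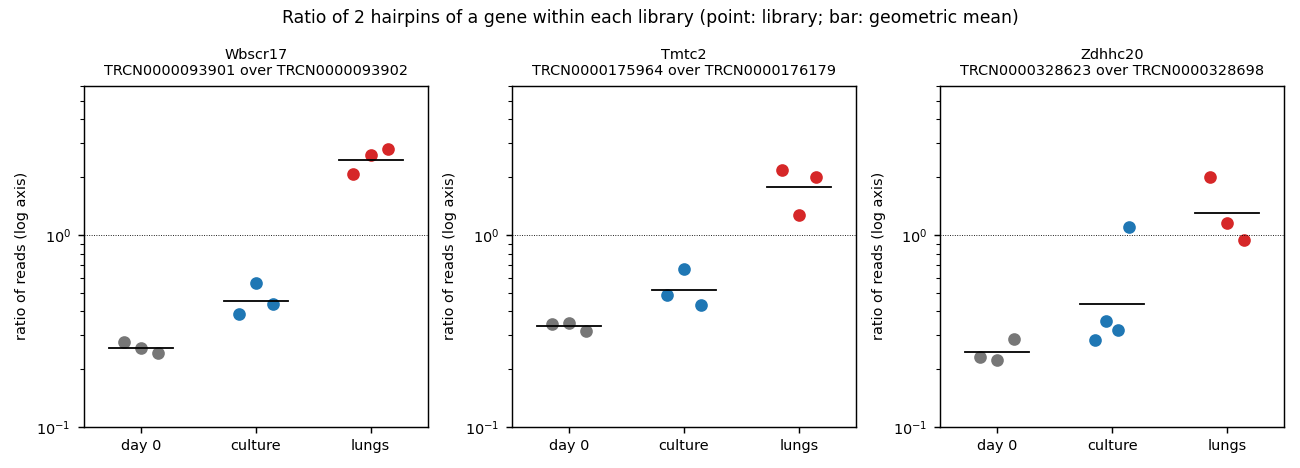
Ratio of the reads of 2 hairpins of a gene within each library (log axis), by arm; points are libraries and bars are geometric means. For the plotted pairs of Wbscr17 (TRCN0000093901 over TRCN0000093902, chosen after its values were seen) and Tmtc2 the lung ratios lie above all day 0 and culture ratios, and for the plotted pair of Zdhhc20 1 culture library reaches the lung values.

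Tmtc2, of the family that puts O-mannose on cadherins, gave the hairpin with the highest rise of pool 2 in lungs against day 0. TRCN0000175964 held 1.38%, 1.41% and 1.26% of the pool at day 0, 0.968%, 0.772% and 0.528% in culture, and 3.66%, 4.07% and 4.63% in lungs. Every lung value was above every day 0 value, and every culture value was below. Its rank among the hairpins of the pool went from 25 to 27 at day 0 to 6 to 10 in lungs. The rise in lungs was 3.91-fold against day 0 (1.97, SE 0.156, limma adjusted p = 0.000138), the highest of 52 changes in the pool, and 5.94-fold against culture (2.57, SE 0.270, adjusted p = 0.00104), the second highest. Both calls held in all 24 and 25 alternatives run, with log2 changes of 1.60 to 2.51 and 2.27 to 4.20. In culture the log2 change was -0.37 (SE 0.191, adjusted p = 0.0950), which was called lower when scaled on the targeting total (-0.88), the controls (-1.69) or as deposited (-1.63), and without culture replicate A (-0.57, adjusted p = 0.0140); without culture replicate C it was -0.12.

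TRCN0000176179, the other Tmtc2 hairpin of pool 2, started higher, at 4.01%, 4.07% and 3.97%. Culture held 2.00%, 1.16% and 1.23%, and lungs 1.67%, 3.19% and 2.30%. Both later arms lay below day 0 without overlap, and they overlapped each other. It fell 1.99-fold in culture (-0.99, SE 0.176, limma adjusted p = 4.49e-05). Prior degrees of freedom of 27.17 in this pool mean that a small p there rests largely on the other hairpins. All 24 alternatives called this hairpin lower in culture, with log2 changes of -2.31 to -0.86 (-1.50 with the targeting total). In lungs it stood at -0.43 against day 0 (SE 0.218, adjusted p = 0.152). Without lung replicate B or scaled on the targeting total it was called lower than day 0 (-0.67, adjusted p = 0.00179, and -0.80, adjusted p = 0.0184), and with scaling on the controls it stood at 0.11. Against culture it stood at 0.79 (SE 0.310, adjusted p = 0.121), and 3 of 25 alternatives called it higher, at 2.42 with control scaling, 1.77 as deposited and 0.78 with all 3 arms in 1 fit. TRCN0000175964 over TRCN0000176179 was 0.318 to 0.347 in day 0 libraries, 0.430 to 0.666 in culture and 1.28 to 2.19 in lungs. The geometric mean rose 5.29-fold from day 0 to lungs. An exact two-sided permutation test of the log ratio gave p = 0.10 for every pair of arms. That is the smallest p that 3 against 3 libraries allow, and it follows from ratios that do not overlap. So of 2 hairpins against Tmtc2 in the same animals, 1 rose and the other was not called (2 of 24 alternatives called it lower), and their ratio separated the arms.

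The pool 3 hairpins of Tmtc2 could be followed only in culture. TRCN0000249554 held 2.44% and 2.46% at day 0 (libraries B and C) and 6.11%, 5.08% and 4.58% in culture. All cultures were above both starting values, and its rank moved from 15 and 16 to between 5 and 7. The rise was 3.47-fold (1.79, SE 0.192, limma adjusted p = 0.000461), the fourth highest of 54 in the pool. It was as large as that of Non-targeting-shRNA-1 in the same libraries, 1.77. The call held in all 24 alternatives, with log2 changes from 1.09, when scaled on the targeting total, to 1.83. TRCN0000249555 was close to the bottom of the pool, with 0.0120% and 0.00933% at day 0 (979 and 535 reads) and 0.0436%, 0.00486% and 0.00666% in culture. Culture library A alone was high, and the log2 change was 0.79 (SE 1.22, adjusted p = 0.605), or -0.24 without that library. Tmtc2 hairpins in culture thus gave 1 rise, 1 fall and 2 values that were not called, in 2 pools with different cultures.

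Zdhhc20, the palmitoyltransferase, had 1 hairpin that fell in lungs against both other arms, 1 that was lower in lungs than in culture only, and 1 that was not called; none of the 3 was called in culture against day 0. TRCN0000328698 held 4.38%, 4.40% and 4.79% of pool 19 at day 0 (libraries A, B and D), 2.28%, 3.12%, 2.42% and 2.67% in cultures 18/19A, B, C and 19D, and 0.426%, 0.465% and 0.900% in lungs. The arms did not overlap, and lungs were lowest. It fell 6.43-fold in lungs against day 0 (-2.69, SE 0.385, limma adjusted p = 0.00413) and 5.64-fold against culture (-2.50, SE 0.457, adjusted p = 0.00156), each the third lowest of 52 changes in the pool. Both calls held in all 24 and 25 alternatives run, with log2 changes of -3.27 to -2.46 and -2.94 to -1.78. In culture the change was -0.22 (SE 0.179, adjusted p = 0.300), called lower with the targeting total (-0.80), control (-1.21) or deposited (-1.25) scaling.

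TRCN0000328625 had a similar course with a wider spread. It held 2.73%, 2.78% and 2.85% at day 0, 2.36%, 2.21%, 1.99% and 2.12% in culture, and 1.42%, 0.386% and 1.03% in lungs. Lungs were below both other arms in all libraries, and lung library B was lowest. Lungs were 3.20-fold below culture (-1.68, SE 0.495, limma adjusted p = 0.0239), a call that 7 of 25 alternatives lost, among them leaving out lung B (-1.11) or any of cultures A, B and C (-1.55, -1.66 and -1.57). Against day 0 the value was -1.43 (SE 0.547, adjusted p = 0.0928), and 8 of 24 alternatives called it lower. In culture it was 0.21 (SE 0.213, adjusted p = 0.415), although its share was below day 0 in all cultures: scaled on the targeting total, the controls or as deposited the value was -0.36, -0.78 and -0.82.

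TRCN0000328623 did not separate the arms by the test. Shares were 1.01%, 0.981% and 1.37% at day 0, 0.648%, 1.11%, 0.776% and 2.93% in culture, and 0.856%, 0.534% and 0.849% in lungs. Culture 19D, the only culture that held pool 19 alone, was far above the 3 cultures shared with pool 18. The log2 changes were -0.28 in lungs against day 0 (SE 0.335, limma adjusted p = 0.552; 0.025 without lung replicate B), 0.60 in culture against day 0 (SE 0.396, adjusted p = 0.213; 0.22 without culture 19D) and -0.92 in lungs against culture (SE 0.464, adjusted p = 0.170; -0.44 without culture 19D). The culture value was -0.39 with control and -0.42 with deposited scaling. Over the 3 hairpins the summed share of Zdhhc20 was 8.12%, 8.16% and 9.02% at day 0, 5.29%, 6.44%, 5.19% and 7.72% in culture, and 2.70%, 1.38% and 2.78% in lungs. The sums of the 3 arms did not overlap, and the lung libraries held the least. These are again shares without TMM scaling, where all hairpins had medians of -0.73 in lungs and -0.64 in culture against day 0.

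Inside a library, TRCN0000328623 over TRCN0000328698, again a pair chosen after its values were seen, had a geometric mean of 0.245 at day 0, 0.435 in culture and 1.30 in lungs. The lung ratios of 0.943 to 2.01 were above day 0, and culture 19D, at 1.10, lay among them. The other pairs shifted less from day 0 to lungs, 2.21-fold for TRCN0000328623 over TRCN0000328625 and 2.39-fold for TRCN0000328625 over TRCN0000328698. The culture ratios of the first of these were 0.275 to 1.38, and its lung ratios were 0.602 to 1.38. The highest culture ratio was that of 19D, and the cultures shared with pool 18 lay below all lung ratios.

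Hairpins against one gene were not each other's closest match. Pearson r of log2(CPM + 1) over the 9 libraries of pool 8 or pool 2, or the 10 of pool 19, is given as a description; the libraries of an arm share their source. TRCN0000093900 and TRCN0000093901 of Wbscr17 had r = 0.814, while TRCN0000093901 and TRCN0000093902 had r = -0.603. The Tmtc2 pair had r = 0.386, and TRCN0000328625 and TRCN0000328698 of Zdhhc20 had r = 0.830. Of the 51 other hairpins of the pool, the most alike to TRCN0000093899, TRCN0000093900, TRCN0000093901 and TRCN0000093902 were single hairpins against Sema4b (r = 0.898), Tns4 (0.822), Ttn (0.958) and Uty (0.898). For TRCN0000176179 it was a hairpin against Srrm2 (0.834). For TRCN0000328623, TRCN0000328625 and TRCN0000328698 they were against Slc4a10 (0.906), Cad (0.892) and Ankrd17 (0.834).

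The library also held 11 listed genes of glycosylation and palmitoylation, enzymes of related function and proteins known to carry such modifications, with 42 hairpins. In lungs against day 0, 8 of their 35 tested hairpins were called, 3 higher and 5 lower (22.9%), in culture 25 of 39 (12 higher, 13 lower, 64.1%), and in lungs against culture 5 of 35 (1 higher, 4 lower, 14.3%). These shares were below those of all hairpins in both lung comparisons (33.8% and 24.9%) and close to that of all hairpins in culture (60.6%). Medians of the log2 changes were -0.24, 0.15 and -0.06 in the 3 comparisons.

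Among the enzymes, neither tested hairpin of Galnt13, a second GALNT enzyme, was called in lungs (-0.59 and -0.14 against day 0), and 1 fell in culture (-0.96, SE 0.153, limma adjusted p = 0.00109). St6gal2, which caps N-glycans with sialic acid, had 2 hairpins that fell in culture (-1.98 and -1.15), none called in lungs against day 0, and 1 higher in lungs than in culture (1.81, adjusted p = 0.000133). Zdhhc4, another palmitoyltransferase, had 2 of 3 hairpins that rose in culture (1.19 and 0.55) and none called in either lung comparison. With the replicate letter as a block, 1 of them was called higher in lungs than at day 0 (0.60, limma adjusted p = 0.0457, against 0.152 without the block), in a pool whose letters deviated together.

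Of the substrates, Muc1, a membrane mucin, fell in lungs with both tested hairpins, in pools 2 and 4 (-1.19, limma adjusted p = 0.0299, and -2.77, adjusted p = 0.00429), and both fell in culture too (-0.85 and -1.03). With the replicate letter as a block, the pool 2 hairpin was not called in lungs against day 0 (limma adjusted p = 0.0594). None of the 4 hairpins of Muc4, another membrane mucin, was called in lungs against day 0 (-0.36 to 0.04), and in culture 1 rose (1.08) and 2 fell (-1.30 and -0.68). The hairpin that rose in culture was lower in lungs than in culture (-1.08, adjusted p = 0.0473). No Egfr hairpin of 4 was called in lungs (-1.57 to -0.20), and in culture 1 rose (2.56) and 2 fell (-0.58 and -1.68). Among adhesion proteins, Pcdh15 had 2 of 4 hairpins that fell in lungs against day 0 (-2.24 and -1.47), the second of them also against culture (-1.15), and its other 2 rose (1.45) and fell (-0.48) in culture. Pcdhb6 had 1 of 4 that rose in lungs over day 0 (0.94); it rose more in culture (2.08) and was lower in lungs than in culture (-0.999, limma adjusted p = 0.0136), and another hairpin rose in culture (0.67). Pcdh18 had 2 that rose (0.82 and 3.20) and 1 that fell (-1.76), the last 2 in pool 19 beside Zdhhc20, and in culture 3 rose (0.96, 0.97 and 1.72) and 1 fell (-1.24). No Cdh23 hairpin was called in lungs against day 0, in culture 1 rose (1.08, and it was lower in lungs than in culture, -0.98) and 1 fell (-1.10), and the 4 Cdh10 hairpins lay in pool 3 with no lung values, where 1 rose and 1 fell in culture (1.12 and -2.78).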

How the data were processed

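Values of 148 of 158 samples were used; the other 10 held none. Per the file headers, the authors deposited a normalised read count per hairpin, a scaled signal. The submitters' processing notes name BWA 0.5.9 without its role, and the sources used here do not give the counting and scaling steps. Dividing each deposited signal by the smallest value of its library gave whole reads for 27241 of 27241 values (100%, tolerance 0.01 reads), and a hairpin missing from a table was set to 0 reads. Technical repeats were summed, and culture libraries named for 2 pools served both.

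Recovered reads were scaled to the pool's targeting reads with TMM factors (edgeR 4.0.16), and log2(CPM + 1) was fitted per pool with limma 3.58.1 in R 4.3.3 (trend, robust), using only the 2 arms compared. A mean of at least 10 reads was required; all 11 hairpins of the 3 genes passed wherever their pool had values. The log2(CPM + 1) scale of the fold changes makes them understate changes of rare hairpins. Intervals are not given. The standard errors come from the spread between libraries. The day 0 libraries are not said to be separate infections, so errors against day 0 may be too small. The design planned limma for scaled values and edgeR for raw counts; edgeR and DESeq2 1.42.0 on the recovered reads were alternatives. The fitting step was tested on simulated data.

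All hairpins of the 3 genes are named, with the most similar hairpin of the pool for each that had values in all 3 arms (1 of these is not reported here), and the listed glycosylation and palmitoylation genes with their called hairpins. The genes, lists and tests were chosen with earlier results of these data known.

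Libraries of 2 arms share replicate letters. The deviations of same-letter libraries from their arm means correlated above 0.1 in 27 of 53 pairs for culture against day 0, 20 of 49 for lungs against day 0 and 22 of 49 for lungs against culture. Of the pools of the 3 genes, only pool 8 had this for all letters, in culture against day 0 (r of 0.792, 0.284 and 0.860). Among the pools of the listed genes it also held in pools 4 and 7 for both comparisons with day 0, pool 18 for lungs against day 0 and pool 5 for lungs against culture. In the other pools and comparisons described here the correlation was not above 0.1 for every letter. Alternatives covered scaling, filter, pseudocount, tool, replicate block, all 3 arms in 1 fit, technical repeats, sequencing lane and leaving out each replicate.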

Additional observations from a re-analysis of the deposited data

Results flagged for a closer look

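Each of the 11 hairpins also had more than 3 reads in libraries of pools it does not belong to. TRCN0000328625 of Zdhhc20 reached 1370 reads in lung library 16D (0.0218% of that library), and TRCN0000093899 and TRCN0000093901 of Wbscr17 had 51 and 143 reads there. Library 16D is one that held little of its own pool. TRCN0000328698 of Zdhhc20 had 828 reads in day 0 library 18B, and TRCN0000328623 had 459 in lung library 14C. Day 0 library 15C held 563 reads of TRCN0000249554 of Tmtc2, 258 of TRCN0000093900 and 177 of TRCN0000093902. TRCN0000175964 of Tmtc2 had 404 reads in culture library 3A, TRCN0000176179 had 35 in lung library 5A, and TRCN0000249555 had 5 in day 0 library 13B. These are the highest values over 136 to 143 libraries of other pools per hairpin.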

How the results depend on the processing

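Of 705 values of single hairpins under alternatives, 626 kept their direction and side of the threshold, 49 lost a call, 20 gained one and 10 changed sign. The sign changes were all in hairpins that were not called. TRCN0000328625 in culture stood at -0.36, -0.78 and -0.82 (limma adjusted p = 0.0305 for the last) with scaling on the targeting total, on the controls and as deposited. TRCN0000328623 in culture stood at -0.39 and -0.42 under the last 2 of these, and in lungs against day 0 it stood at -0.66 with control scaling and, with a replicate left out, ranged from -0.63 without lung replicate D to 0.025 without lung replicate B. TRCN0000176179 in lungs against day 0 stood at 0.11 with control scaling, and TRCN0000249555 in culture at -0.24 with the replicate block. With a replicate left out, the last of these ranged from -0.24 (without culture A) to 1.40, and TRCN0000093899 in lungs against culture from -0.088 (without lung C) to 0.71. Scaling moved the hairpins of a pool together, by amounts that differed between pools. With the controls, TRCN0000175964 of pool 2 went from 1.97 to 2.51 in lungs against day 0, and TRCN0000328698 of pool 19 from -2.69 to -3.06. Over all hairpins the median log2 change in lungs against day 0 went from -0.13 to -0.73, -0.57 and -0.82. These are the values with the targeting total, the controls and the deposited values. In culture the median went from -0.10 to -0.64, -0.99 and -0.89. In lungs against culture it went from -0.11 to -0.26, 0.30 and -0.13. Of the calls in these 3 comparisons, 43.5%, 47.5% and 46.6% were higher; the shares were 24.4%, 26.5% and 44.6% with the targeting total, 45.8%, 16.1% and 82.4% with the controls and 30.5%, 20.6% and 60.6% as deposited. The cultures of 2 pools hold the controls of both.

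With the replicate block, 3 member hairpins were called in lungs against day 0 (5 without it; 231 and 301 of all hairpins), where TRCN0000093899 and TRCN0000093901 had adjusted p-values of 0.0930 and 0.0594. The block also ended the calls of TRCN0000093900 and TRCN0000328625 in lungs against culture (adjusted p = 0.137 and 0.0709) and of TRCN0000093901 in culture. Of the listed genes, the Muc1 hairpin of pool 2 had an adjusted p of 0.0594 with the block in lungs against day 0, in a pool whose samples share only a letter. With all 3 arms in 1 fit, 364 hairpins of the whole library were called in culture against day 0, where 2 arms gave 573. The cause was not tested. Leaving out a replicate gave 148 to 388 called hairpins in lungs against day 0, 479 to 605 in culture against day 0 and 142 to 249 in lungs against culture, and 3 to 6, 4 to 6 and 2 to 6 member hairpins. Lung library 2B, at 1285372 reads, was the shallowest of the libraries used for the member hairpins. TRCN0000249555, at 0.0436% or less of its pool, was the rarest of the member hairpins.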
